A study of Mus musculus with 6 samples.

Results

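In immortalised mouse macrophages given interleukin-4 (IL-4), transcripts of TCA cycle enzymes did not move together when PGAM5 knockdown was compared with DRP1 knockdown. Cs, the gene of the enzyme that starts the cycle, Suclg1 and Fh1 were 1.16-, 1.15- and 1.098-fold higher in the PGAM5 knockdown. Idh1, the isocitrate dehydrogenase of the cytosol, and Sucla2 were 1.23- and 1.17-fold lower. Idh3a, Idh3b, Ogdh and Mdh2 did not pass the test. The 9 genes were taken by symbol from GENCODE M21, which is on mouse build mm10, among the 54532 gene identifiers of the deposited files, and each of the 9 was found once.

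The TCA cycle burns the acetyl group of acetyl-CoA in the mitochondrial matrix and hands electrons to the respiratory chain, and its intermediates are drawn off for lipids, amino acids and itaconate. Citrate synthase (Cs) opens it by joining acetyl-CoA to oxaloacetate. Isocitrate is oxidised by the NAD-dependent isocitrate dehydrogenase, with Idh3a as catalytic subunit and Idh3b as a partner subunit, and 2-oxoglutarate by a complex whose first enzyme is Ogdh. Succinyl-CoA ligase, made of the alpha subunit Suclg1 and the ATP-specific beta subunit Sucla2, follows, and fumarase (Fh1) and the mitochondrial malate dehydrogenase (Mdh2) close the circle. Idh1 makes NADPH from isocitrate in the cytosol and peroxisomes, outside the mitochondrial cycle. In macrophages, activation by bacterial products is known for a cycle interrupted after citrate and at succinate, and activation by IL-4 for an intact one.

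The cells were bone marrow-derived macrophages of an immortalised mouse line. Of the 6 libraries, 3 carried a short hairpin RNA against Pgam5, a phosphatase of mitochondria, and 3 a hairpin against the gene of DRP1 (Dnm1l), the GTPase that divides mitochondria. The cells of every library had been given IL-4 at 10 ng/ml for 24 h before total RNA was made. The series asked what PGAM5 does when anti-inflammatory responses are induced. No library with a control hairpin or without IL-4 is analysed here, so a difference does not tell which of the knockdowns moved a gene. The titles number the libraries 1 to 3 within a target without saying whether these are separate cultures or separate hairpins, so the spread behind each p-value is that among these libraries and may be technical.

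Values are FPKM, fragments scaled to the exonic length of the gene and the depth of the library. The depth that turns them into whole reads was 16111279 to 21933541 per library, and the 9 genes held between 926 reads (Idh1) and 11621 reads (Mdh2) in a library. Pgam5 lay at 4.60 to 5.21 FPKM in the PGAM5 knockdown libraries and at 17.1 to 17.3 in the DRP1 knockdown libraries, with 65.9% of its transcript matched by Gm26718, which was listed at 0 throughout. Dnm1l lay at 17.2 to 18.7 FPKM in the PGAM5 knockdown and at 7.12 to 8.18 in the DRP1 knockdown. Of 10 macrophage markers 9 had a mean of at least 1 FPKM, and Mertk was the exception. The summed level of the 10 was 3769 to 3939 FPKM in the PGAM5 knockdown and 4820 to 4863 in the DRP1 knockdown. Of the 10, 6 were lower in the PGAM5 knockdown without overlap, as were 20.5% of all genes with a mean of at least 1 FPKM. Among the 6 were Lyz2 (1229 to 1355 FPKM, against 1948 to 1964 in the DRP1 knockdown), Cd68 (484 to 522 FPKM, against 674 to 693 in the DRP1 knockdown) and Csf1r (135 to 144 FPKM, against 209 to 215 in the DRP1 knockdown). Spi1, the gene of the myeloid transcription factor PU.1, lay at 191 to 196 FPKM in the PGAM5 knockdown and at 191 to 192 in the DRP1 knockdown, and Adgre1, the gene of F4/80, at 43.4 to 44.5 FPKM in the PGAM5 knockdown, against 42.4 to 44.1 in the DRP1 knockdown, so both overlapped. The part of these markers in the differences below was not tested. In bulk RNA of 1 line, fewer cells holding a marker's RNA cannot be told from less of that RNA per cell. Markers of T cells, B cells, neutrophils, dendritic cells, fibroblasts, endothelium, epithelium and erythroid cells had no member with a mean of 1 FPKM, and the highest sum of any such list in a library was 0.804 FPKM (endothelium). Cd3e, Ms4a1, Ly6g, Col1a2, Epcam and Hbb-bs had 0 reads in each of the 6 libraries.

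Differences are on the scale of log2(FPKM + 1), with PGAM5 knockdown minus DRP1 knockdown as their direction, and a gene rose or fell where limma's p, adjusted over all 10634 genes with a mean of at least 1 FPKM, was under 0.05. By this rule 25.4% of all tested genes were called, 13.8% as higher and 11.7% as lower in the PGAM5 knockdown. All 9 enzyme genes were tested, 3 rose, 2 fell and 4 did not pass, so 55.6% were called. Among the 3298 genes at or above the lowest mean of the 9 (17.6 FPKM), 36.9% were called. In 7 of the 9 the libraries of the groups did not overlap, 5 being higher and 2 lower in the PGAM5 knockdown, while this held for 43.5% of all tested genes (23% higher, 20.5% lower). The median difference of the 9 was 0.06, against 0.01 over all tested genes, and the differences ran from -0.29 to 0.21. The standard errors of the 9 lay between 0.026 and 0.057. Their summed level was 472, 473 and 484 FPKM in the PGAM5 knockdown, against 453, 455 and 456 FPKM in the DRP1 knockdown, without overlap. Mdh2, which did not pass, made up 147 to 158 FPKM of each sum. The summed FPKM of all genes was 372758, 381321 and 393668 in the PGAM5 knockdown, against 364737, 370344 and 377913 in the DRP1 knockdown. The sum of the 9 is thus no measure of a rise across them. With 3 libraries a group an exact permutation test cannot give a two-sided p under 0.1, and it gave 0.1 for each of the 7 genes without overlap.

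**Figure D1:**
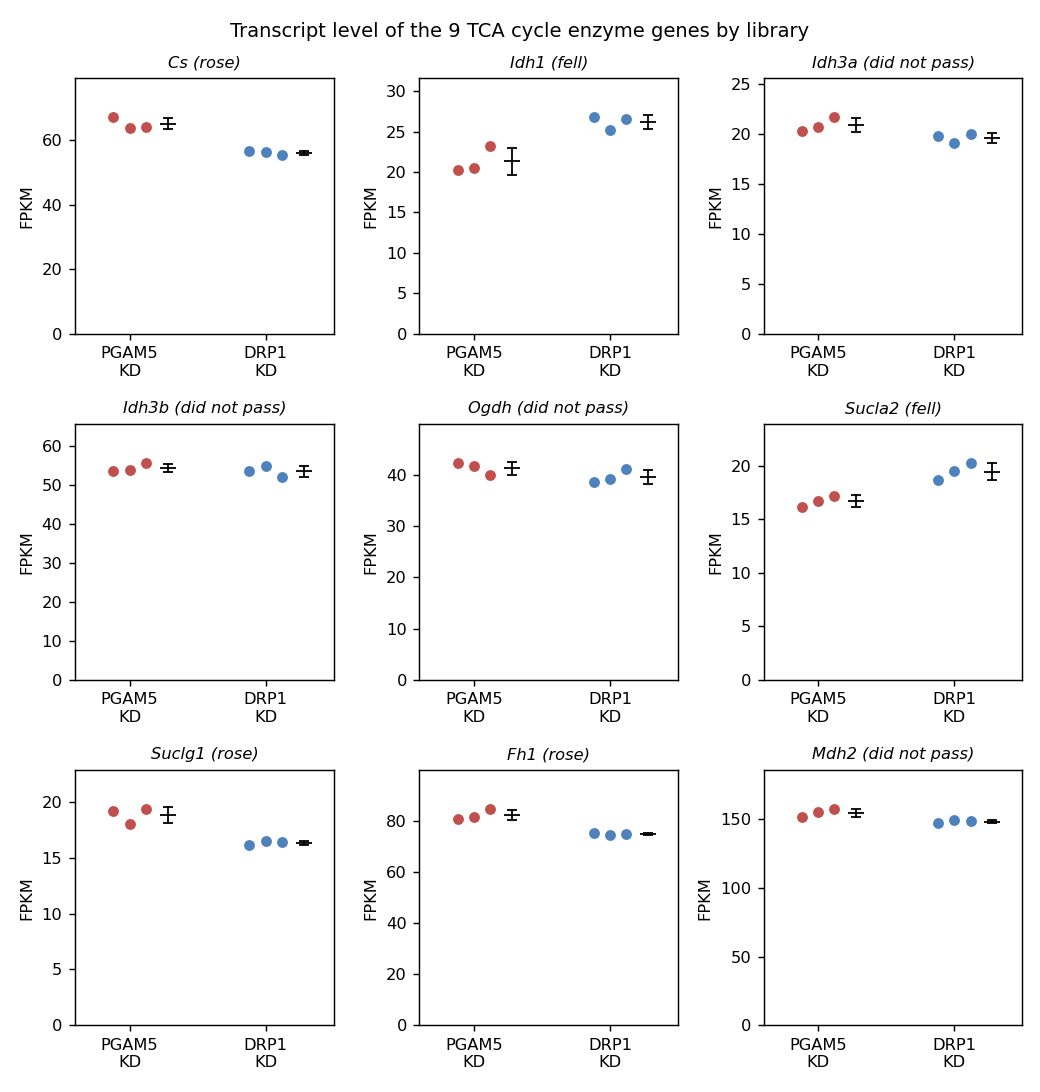
FPKM of each of the 9 TCA cycle enzyme genes (vertical axes from 0) in the 3 PGAM5 knockdown libraries (red, left) and the 3 DRP1 knockdown libraries (blue, right), 1 point per library in the order 1 to 3, with the mean and SD as a black bar beside them. The groups are apart in 7 panels and overlap for Idh3b and Ogdh.

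The enzymes do not share a locus, as only Idh1 and Fh1 lie on the same chromosome, and no transcript of another gene matched the longest transcript of any of the 9 at 97% identity or more over 100 bases. Promoters of 8 of the 9 were matched in RefSeq on GRCm38.p6 (Idh3a was not), as windows from 250 bases before to 50 after the outermost RefSeq start. That start lies 27467 bases inside the GENCODE gene for Sucla2, so its window is not at the gene start printed here. The window of 6 of the 8 (5 of 7 without Sucla2) held GGGCGG on either strand, the GC box read by SP1, against 35.9% of 27025 promoters, and that of 5 of the 8 held CCAAT, against 38.0%. ACGTG, the core of the HIF site, was found in 1 (Ogdh, 19.6% of promoters) and CCGGAAG, an ETS site, in 1 (Idh3b, 9.14%). AAGGTCA of ERR (4.65%), GCATGCG from the NRF1 motif (3.65%) and CACGTG, an E-box that contains ACGTG (7.24%), were in none of the 8 windows. Both CCAAT and GGGCGG were in the windows of Cs, Fh1, Idh1 and Ogdh. Mdh2 and Sucla2 held GGGCGG without CCAAT, Idh3b held CCAAT without GGGCGG, and Suclg1, which rose, held neither. Whether the letters go with the direction of a gene was not tested. A match is a description of the letters and says nothing of binding.

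The stretches before the start of Cs and Fh1, which rose, and of Idh1, which fell, are shown. These are the called genes whose windows held both CCAAT and GGGCGG. Capitals mark CCAAT and GGGCGG or their complements on the other strand. They run 5′ to 3′ on the gene's strand and leave out annotated exons (of Pikfyve too, beside Idh1), at chr10:128337477-128337726 (plus) for Cs, chr1:175625636-175625885 (minus) for Fh1 and chr1:65186501-65186682 (minus) for Idh1.
Cs: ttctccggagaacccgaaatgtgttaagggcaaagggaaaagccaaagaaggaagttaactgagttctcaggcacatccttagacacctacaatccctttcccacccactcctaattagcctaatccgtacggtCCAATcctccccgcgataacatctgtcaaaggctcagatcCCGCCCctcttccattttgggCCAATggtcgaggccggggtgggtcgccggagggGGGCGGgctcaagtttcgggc
Fh1: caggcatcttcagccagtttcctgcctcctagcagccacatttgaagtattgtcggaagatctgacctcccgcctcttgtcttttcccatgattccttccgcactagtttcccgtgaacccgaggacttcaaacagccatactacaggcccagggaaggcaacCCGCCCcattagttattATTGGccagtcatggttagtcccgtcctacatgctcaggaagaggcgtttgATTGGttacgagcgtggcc
Idh1: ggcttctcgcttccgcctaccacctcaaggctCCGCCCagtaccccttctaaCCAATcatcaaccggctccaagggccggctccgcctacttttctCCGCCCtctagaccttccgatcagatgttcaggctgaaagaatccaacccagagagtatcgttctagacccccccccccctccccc
Cs holds CCAAT at 116 and 55 bases before its RefSeq start and the GC box at 76 and 21. Fh1 holds CCAAT at 70 and 19 and the GC box at 87, while Idh1 holds CCAAT at 151 and the GC box at 171 and 107. GC content of the 8 windows ran from 50.3% to 62.7%, against a median of 52.7% over all promoters.

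Cs rose. It stood at 67.1, 63.9 and 64.2 FPKM in PGAM5 knockdown libraries 1 to 3 and at 56.6, 56.2 and 55.4 in DRP1 knockdown libraries 1 to 3. Every PGAM5 knockdown library was above every DRP1 knockdown library, and PGAM5 knockdown library 1 was the highest. The means were 65.0 ± 1.74 FPKM in the PGAM5 knockdown, against 56.1 ± 0.60 in the DRP1 knockdown (SD, n = 3 each, as for every mean here), with a log2 difference of 0.21 (SE 0.030, limma adjusted p = 0.0028). The gene (ENSMUSG00000005683) lies on chromosome 10 from 128337734 to 128362479, plus strand.

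Of the isocitrate dehydrogenases, the cytosolic one fell and the subunits of the mitochondrial NAD-dependent one did not pass. Idh1 (ENSMUSG00000025950, minus strand of chromosome 1, 65158616 to 65186500) stood at 20.2, 20.5 and 23.2 FPKM in the PGAM5 knockdown and at 26.7, 25.2 and 26.5 in the DRP1 knockdown. The groups did not overlap, and library 3 of the PGAM5 knockdown lay nearest to the other group. The means were 21.3 ± 1.68 FPKM in the PGAM5 knockdown, against 26.2 ± 0.83 in the DRP1 knockdown, and the difference was the largest of the 9 in size at -0.29 (SE 0.057, limma adjusted p = 0.010). Without PGAM5 knockdown library 3 the difference was -0.35 (limma adjusted p = 0.0016). It was -0.25 without PGAM5 knockdown library 1 (limma adjusted p = 0.028) and -0.26 without library 2 (0.038). Without DRP1 knockdown library 1, 2 or 3 the limma adjusted p was 0.042, 0.025 or 0.042.

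Idh3a (ENSMUSG00000032279, chromosome 9, 54586334 to 54604661, plus strand) measured 20.3, 20.7 and 21.6 FPKM in the PGAM5 knockdown, against 19.8, 19.1 and 19.96 in the DRP1 knockdown. The groups did not overlap, with library 1 of the PGAM5 knockdown just above library 3 of the DRP1 knockdown, and the difference of 0.09 had a 95% interval of -0.0007 to 0.18 (limma adjusted p = 0.13). Idh3b (ENSMUSG00000027406, chromosome 2, 130279309 to 130284547, minus strand) measured 53.8, 54.0 and 55.7 FPKM in the PGAM5 knockdown, against 53.7, 55.1 and 52.2 in the DRP1 knockdown. Its groups overlapped, and the difference of 0.02 had an interval of -0.05 to 0.10 (limma adjusted p = 0.65), its sign turning to -0.03 under quantile normalization. Of the 9 genes, Idh3b was the one with exons touching those of another gene, sharing 5 bases with Nop56 on the opposite strand.

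Ogdh (ENSMUSG00000020456, chromosome 11, 6291633 to 6356642, plus strand), which commits 2-oxoglutarate to succinyl-CoA, did not pass. It measured 42.4, 41.9 and 40.0 FPKM in the PGAM5 knockdown, against 38.7, 39.2 and 41.2 in the DRP1 knockdown. Library 3 of the PGAM5 knockdown lay below library 3 of the DRP1 knockdown, so the groups overlapped. The difference was 0.06 (SE 0.038, 95% interval -0.03 to 0.15, limma adjusted p = 0.29).

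The subunits of succinyl-CoA ligase went opposite ways. Sucla2 (ENSMUSG00000022110, chromosome 14, 73525319 to 73596142, plus strand) stood at 16.1, 16.7 and 17.2 FPKM in the PGAM5 knockdown and at 18.6, 19.5 and 20.2 in the DRP1 knockdown, and it fell (difference -0.21, SE 0.043, limma adjusted p = 0.012). Suclg1 (ENSMUSG00000052738, chromosome 6, 73248382 to 73276911, plus strand) stood at 19.1, 18.0 and 19.3 FPKM in the PGAM5 knockdown and at 16.1, 16.5 and 16.4 in the DRP1 knockdown, and it rose (difference 0.19, SE 0.038, limma adjusted p = 0.0094). Neither gene's groups overlapped. Within each PGAM5 knockdown library Suclg1 had the higher FPKM of the pair, and within each DRP1 knockdown library Sucla2 did.

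Fh1 (ENSMUSG00000026526, minus strand of chromosome 1, 175600374 to 175625635) rose. It stood at 80.9, 81.3 and 84.6 FPKM in the PGAM5 knockdown and at 75.3, 74.5 and 75.0 in the DRP1 knockdown. The groups did not overlap, and the difference was 0.13 (SE 0.029, limma adjusted p = 0.014). Of the 5 calls this was the one that leaving out a library ended, with a limma adjusted p of 0.059 without DRP1 knockdown library 2 and of 0.054 without DRP1 knockdown library 3.

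Mdh2 (ENSMUSG00000019179, chromosome 5, 135778480 to 135790398, plus strand) was the most abundant of the 9 and did not pass. It measured 152, 155 and 158 FPKM in the PGAM5 knockdown, against 147, 149 and 149 in the DRP1 knockdown. The groups did not overlap, and the difference was 0.06 (SE 0.026, 95% interval 0.0005 to 0.12, limma unadjusted p = 0.049, adjusted p = 0.13).

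**Figure D2:**
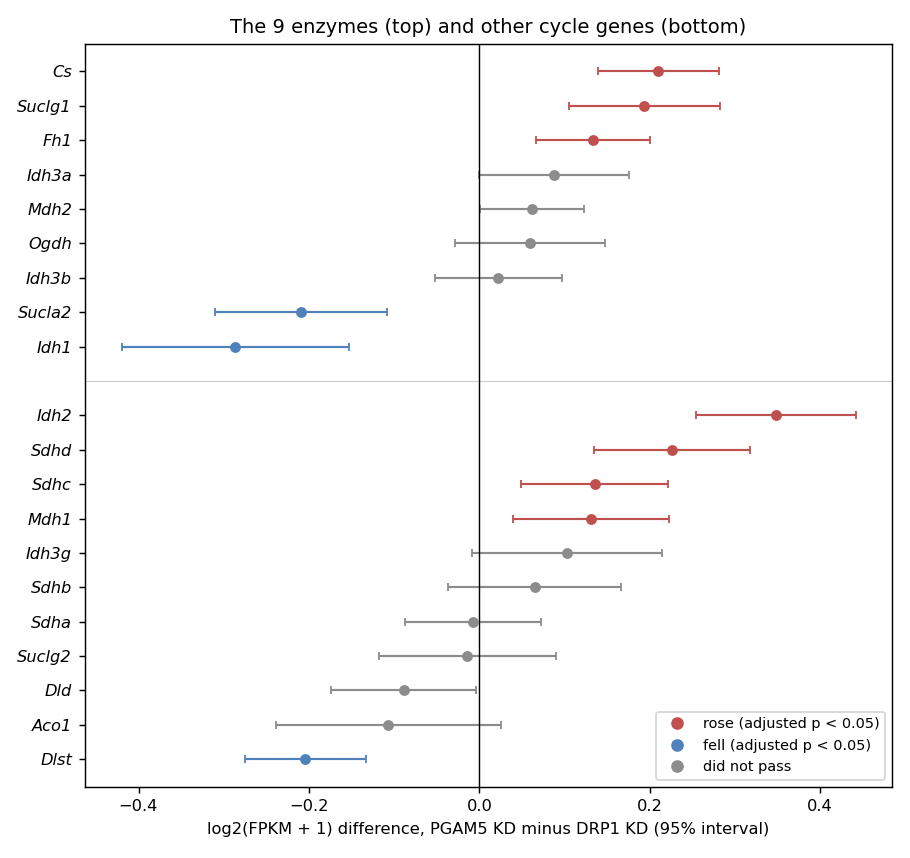
Differences in log2(FPKM + 1), PGAM5 knockdown minus DRP1 knockdown, with 95% intervals from limma, for the 9 enzymes (top) and 11 of the 12 other tested genes of the cycle (bottom). Red points rose, blue points fell and grey points did not pass at an adjusted p of 0.05. Sucla2 and Idh1 lie at -0.21 and -0.29, left of the other 7.

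The 9 genes differed among themselves far more in level than between the groups. FPKM is scaled to the length of all annotated exons of a gene, which exceeds its longest transcript unequally. For Cs it is 5779 bases against 3003, and for Fh1 3392 against 2636. The order of levels given here therefore depends on the annotation and could differ with transcript lengths. By the mean over the 6 libraries the order was Mdh2 (152 FPKM), Fh1 (78.6), Cs (60.6), Idh3b (54.1), Ogdh (40.6), Idh1 (23.7), Idh3a (20.2), Sucla2 (18.1) and Suclg1 (17.6). From Mdh2 down to Idh1 each gene was above the next in all 6 libraries. Idh1 and Idh3a were not apart in the PGAM5 knockdown, where their ranges overlapped, and Idh1 was above Idh3a in 4 of 6 libraries. Idh3a and Sucla2 overlapped in the DRP1 knockdown, and Sucla2 and Suclg1 changed places between the groups.

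Ratios of FPKM within a library need no scaling between libraries. Their absolute size depends on the exonic lengths of both genes, so they are read between the groups. Sucla2 over Suclg1 was 0.843, 0.928 and 0.890 in the PGAM5 knockdown, against 1.16, 1.19 and 1.23 in the DRP1 knockdown. Suclg2, which encodes the GTP-specific beta subunit that competes for Suclg1, did not pass (17.0 ± 0.55 FPKM in the PGAM5 knockdown, against 17.2 ± 0.79 in the DRP1 knockdown, with 38.7% of its transcript matched by Gm15163). Suclg2 over Suclg1 was 0.905 ± 0.024 in the PGAM5 knockdown, against 1.05 ± 0.051 in the DRP1 knockdown. Sucla2 over Suclg2 was 0.980 ± 0.057 in the PGAM5 knockdown, against 1.13 ± 0.090 in the DRP1 knockdown. In each of these 3 ratios the libraries of the PGAM5 knockdown lay below those of the DRP1 knockdown. The ratios share their genes, so they are not separate results. Sucla2 and Suclg1 were already apart between the groups on their own, and the ratios restate that.

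Idh1 over Idh2, the mitochondrial enzyme with the same NADP-dependent reaction, was 0.278, 0.256 and 0.304 in the PGAM5 knockdown, against 0.442, 0.417 and 0.456 in the DRP1 knockdown, with no overlap. Ogdh over Dlst, the second enzyme of the same complex, was 1.34 ± 0.056 in the PGAM5 knockdown, against 1.11 ± 0.026 in the DRP1 knockdown, also with no overlap. Idh1, Idh2 and Dlst were each apart between the groups on their own, so the ratios with them are not separate results. Idh3a over Idh3b, subunits of 1 enzyme, overlapped between the groups. This ratio was 0.383 ± 0.0055 in the PGAM5 knockdown, against 0.366 ± 0.018 in the DRP1 knockdown.

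**Figure D3:**
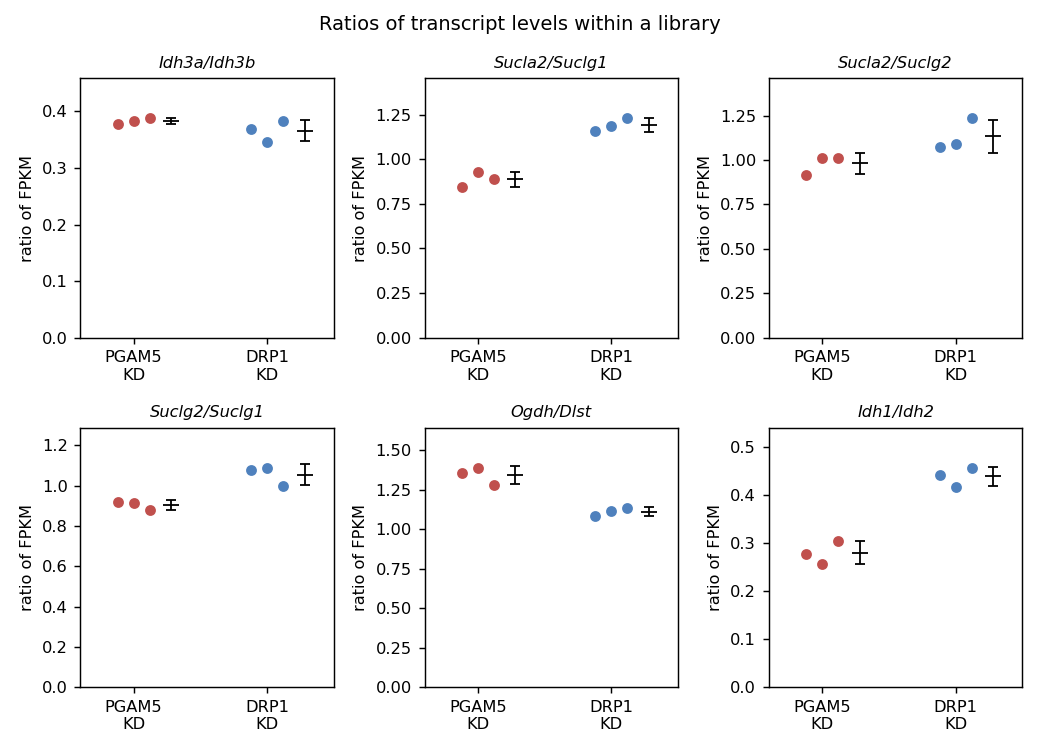
Ratio of FPKM of 2 genes within a library (vertical axes from 0) in the 3 PGAM5 knockdown libraries (red, left) and the 3 DRP1 knockdown libraries (blue, right), with mean and SD as a black bar. Sucla2 over Suclg1 is at most 0.928 in the PGAM5 knockdown libraries and at least 1.16 in those of the DRP1 knockdown, while Idh3a over Idh3b overlaps.

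Of 14 remaining genes of the cycle, 12 were tested, 5 rose, 1 fell and 6 did not pass, so 50% were called against the 25.4% of all tested genes. Among genes at or above 17.6 FPKM, a level that most of the 12 reach, 36.9% were called. Idh2, the NADP-dependent isocitrate dehydrogenase of mitochondria, stood at 72.7, 79.9 and 76.3 FPKM in the PGAM5 knockdown and at 60.5, 60.5 and 58.2 in the DRP1 knockdown (difference 0.35, SE 0.040, limma adjusted p = 0.0010). Of succinate dehydrogenase, which is also complex II of the respiratory chain, the membrane anchor genes Sdhd (difference 0.23) and Sdhc (0.14) rose, and the subunit genes of its catalytic part, Sdha (79.5 ± 2.62 FPKM in the PGAM5 knockdown, against 79.9 ± 1.73 in the DRP1 knockdown) and Sdhb (80.8 ± 4.08 FPKM in the PGAM5 knockdown, against 77.2 ± 2.42 in the DRP1 knockdown) did not pass. Mdh1, the malate dehydrogenase of the cytosol, rose by 0.13. The calls of Sdhc and Mdh1 were lost when single libraries were left out, with limma adjusted p of 0.11, 0.057 and 0.090 for Sdhc and 0.11, 0.099 and 0.14 for Mdh1 without DRP1 knockdown library 1, 2 or 3, of 0.056 and 0.074 without PGAM5 knockdown library 1, and for Sdhc of 0.0503 without PGAM5 knockdown library 2. With all 6 libraries both were also lost with no filter (limma adjusted p of 0.065 for Sdhc and 0.093 for Mdh1), with no trend (0.064 and 0.083) and with the replicate block (0.065 and 0.096), and Sdhc under quantile normalization (0.055).

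Dlst, which transfers succinyl groups in the 2-oxoglutarate dehydrogenase complex, fell, at 31.2, 30.2 and 31.2 FPKM in the PGAM5 knockdown, against 35.6, 35.3 and 36.2 in the DRP1 knockdown (difference -0.20, limma adjusted p = 0.0031). Dld, the lipoamide dehydrogenase of the same complex, measured 177 ± 8.05 FPKM in the PGAM5 knockdown, against 188 ± 1.34 in the DRP1 knockdown and did not pass (limma adjusted p = 0.12), but it passed without PGAM5 knockdown library 3 (difference -0.13, limma adjusted p = 0.0065) and, with all 6 libraries, under quantile normalization (adjusted p = 0.012) and by voom on recovered reads (0.030). Idh3g, the gamma subunit beside Idh3a and Idh3b, did not pass (55.7 ± 3.37 FPKM in the PGAM5 knockdown, against 51.7 ± 1.47 in the DRP1 knockdown). Aco1, the cytosolic aconitase, measured 14.3 ± 1.12 FPKM in the PGAM5 knockdown, against 15.4 ± 0.27 in the DRP1 knockdown and did not pass. Ogdhl and Dhtkd1, relatives of Ogdh, were below the filter with at most 3 reads and 1 read in a library.

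Of 13 genes of pyruvate entry 11 were tested, 3 rose, 0 fell and 8 did not pass, a called share of 27.3% against 25.4% of all tested genes. The 3 were Pdk1 and Pdk3, kinases that inactivate pyruvate dehydrogenase, and Pcx, which makes oxaloacetate from pyruvate. Pdk1 stood at 8.95, 8.79 and 7.95 FPKM in the PGAM5 knockdown and at 4.54, 4.56 and 4.61 in the DRP1 knockdown (difference 0.78, limma adjusted p = 1.0e-04). Pcx averaged 5.74 ± 0.33 FPKM in the PGAM5 knockdown, against 4.39 ± 0.25 in the DRP1 knockdown (difference 0.32, limma adjusted p = 0.0071) and Pdk3 19.0 ± 0.66 FPKM in the PGAM5 knockdown, against 16.1 ± 1.05 in the DRP1 knockdown (0.22, limma adjusted p = 0.020, which became 0.0502 without PGAM5 knockdown library 2 and 0.053 with no filter). The enzyme's own subunit genes Pdha1, Pdhb, Dlat and Pdhx did not pass, with differences of 0.07, 0.10, 0.08 and -0.01, and the pyruvate carrier genes Mpc1 and Mpc2 did not pass either (0.03 and 0.10). Mpc1 was listed at 3.79 to 4.27 FPKM, and 35.7% of its transcript was matched by other genes, of which Mpc1-ps was listed at 69.8 to 80.7 FPKM, so reads of Mpc1 may have been counted there. Pdk4 had 0 reads in every library.

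Of 21 genes that fill or drain the cycle 17 were tested, 6 rose, 3 fell and 8 did not pass (52.9% called, against 25.4% of all tested genes). Among genes at or above 17.6 FPKM, a level that most of the 17 reach, the called share was 36.9%. Me1 and Me2, malic enzymes of the cytosol and of mitochondria that turn malate into pyruvate, were among those that rose. Me1 averaged 35.2 ± 1.27 FPKM in the PGAM5 knockdown, against 19.5 ± 0.93 in the DRP1 knockdown (difference 0.82, limma adjusted p = 4.2e-05), and Me2 averaged 72.4 ± 0.081 FPKM in the PGAM5 knockdown, against 54.0 ± 1.28 in the DRP1 knockdown (difference 0.42, limma adjusted p = 0.00011). Part of Me1's transcript, 60.1%, matched other genes at 97% identity or more, and such reads can be lost or split. Pck2, the mitochondrial phosphoenolpyruvate carboxykinase (0.34), Gpt2, the mitochondrial alanine aminotransferase (0.28), and the carrier genes Slc25a11 for 2-oxoglutarate (0.26) and Slc25a13 for aspartate and glutamate (0.16) rose too. Slc25a13 lost its call without DRP1 knockdown library 2 (limma adjusted p = 0.052).

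Among the draining or filling genes that fell were Got1 and Acod1. Got1, the cytosolic aspartate aminotransferase of the malate-aspartate shuttle, stood at 112, 111 and 118 FPKM in the PGAM5 knockdown and at 165, 166 and 163 in the DRP1 knockdown (difference -0.53, SE 0.030, limma adjusted p = 4.9e-05). Its mitochondrial partner Got2 did not pass at 104 ± 1.09 FPKM in the PGAM5 knockdown, against 101 ± 1.49 in the DRP1 knockdown (difference 0.04), and other genes matched 72.5% of its transcript. Acod1, which diverts cis-aconitate to itaconate, averaged 122 ± 1.43 FPKM in the PGAM5 knockdown, against 155 ± 3.18 in the DRP1 knockdown (difference -0.34, limma adjusted p = 0.00024). Acly, which splits citrate in the cytosol, did not pass at 23.1 ± 0.87 FPKM in the PGAM5 knockdown, against 25.1 ± 0.23 in the DRP1 knockdown (limma adjusted p = 0.055) but passed in 5 of 14 alternatives, with 0.047 without PGAM5 knockdown library 2 and, with all 6 libraries, 0.047 at a minimum mean of 5 FPKM, 0.047 under quantile normalization, 0.049 under median-ratio scaling and 0.026 by voom on recovered reads. Glud1, which links glutamate to 2-oxoglutarate, did not pass (66.5 ± 0.62 FPKM in the PGAM5 knockdown, against 66.0 ± 0.20 in the DRP1 knockdown).

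Lipoate is the swinging arm of the 2-oxoglutarate and pyruvate dehydrogenase complexes, and of 4 tested genes around its supply 1 rose, 0 fell and 3 did not pass, a called share of 25% against 25.4% of all tested genes. Mcat, which feeds the mitochondrial fatty acid synthesis that yields lipoate, averaged 12.7 ± 0.60 FPKM in the PGAM5 knockdown, against 10.1 ± 0.25 in the DRP1 knockdown (difference 0.30, limma adjusted p = 0.0031). Lias, the lipoate synthase, averaged 10.3 ± 0.41 FPKM in the PGAM5 knockdown, against 9.40 ± 0.33 in the DRP1 knockdown and did not pass. Lipt1 did not pass (2.88 ± 0.72 FPKM in the PGAM5 knockdown, against 2.18 ± 0.19 in the DRP1 knockdown) but passed without PGAM5 knockdown library 1 (difference 0.44, limma adjusted p = 0.011). Nnt, the NADPH-making transhydrogenase of mitochondria, was listed at 0.032 FPKM or less in each library under 1 identifier. A further Nnt identifier, on the same strand and stretch of chromosome 13, was listed at 0 throughout. Of the longest Nnt transcript, 96.4% matched the other entry. Such reads can be lost or split, so these values do not show that Nnt is silent.

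**Figure D4:**
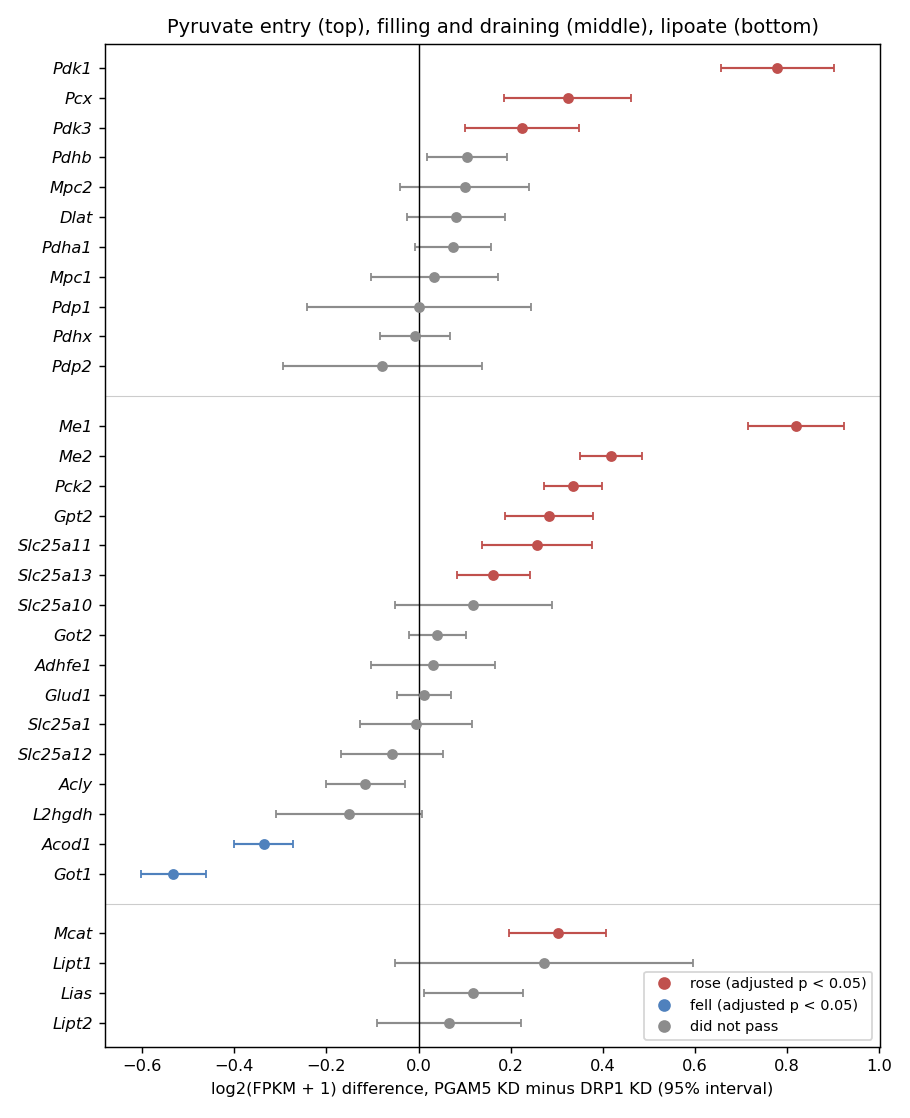
Differences in log2(FPKM + 1), PGAM5 knockdown minus DRP1 knockdown, with 95% intervals from limma, for tested genes of pyruvate entry (top), of filling and draining (middle, 16 of the 17 tested) and of lipoate supply (bottom), coloured by call at an adjusted p of 0.05. Me1 and Pdk1 lie farthest right at 0.82 and 0.78, and Got1 farthest left at -0.53.

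Set among all tested genes, the difference of Idh1 was larger in size than that of 86.5% of all tested genes, those of Cs, Sucla2 and Suclg1 larger than 77.5%, 77.4% and 74.7%, and that of Fh1 larger than 59.9%. The differences of Idh3a, Mdh2, Ogdh and Idh3b were larger than 43.4%, 31.5%, 30.3% and 11.8%. In level each of the 9 stood above 69.0% or more of the tested genes, Mdh2 above 96.9%.

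**Figure D5:**
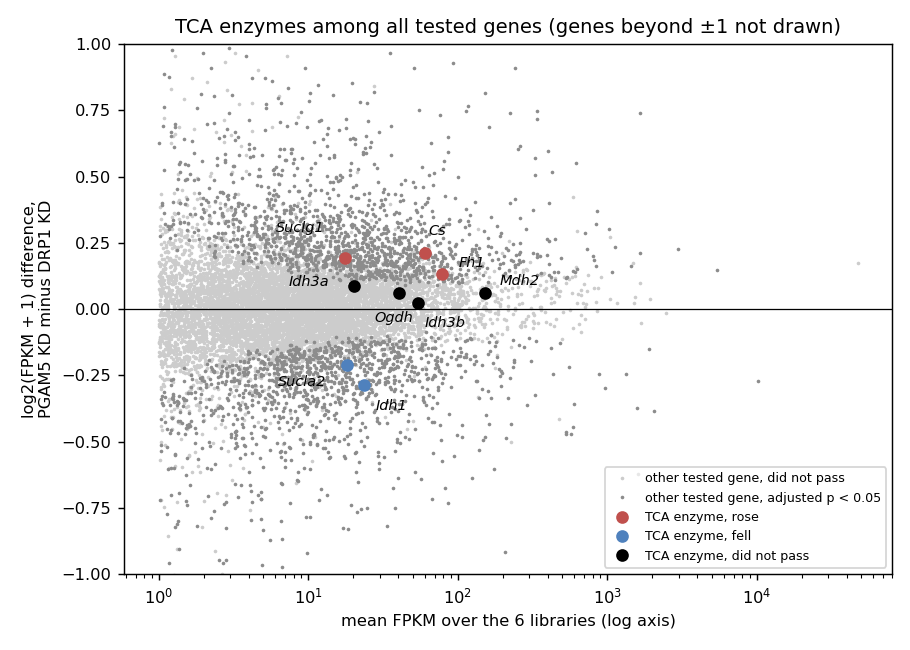
Mean FPKM over the 6 libraries (horizontal log axis) against the difference in log2(FPKM + 1), PGAM5 knockdown minus DRP1 knockdown, for the tested genes (those beyond 1 in size are not drawn; grey, darker where the adjusted p was under 0.05) and the 9 enzymes (red rose, blue fell, black did not pass). The enzymes lie between -0.29 and 0.21, where many other genes of their level lie.

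Likeness of pattern was measured for the 3 enzymes with the largest differences. The measure was the root mean square distance of log2(FPKM + 1) values centred on each gene's own mean over the 6 libraries. The search covered 4748 genes with a mean of at least 10 FPKM. Genes without a symbol, or with one that starts with Gm and a number or ends in Rik, were left out. Tlr2, a receptor for bacterial lipoproteins, was at rank 2 from Cs, at a distance of 0.017 (61.5 ± 1.77 FPKM in the PGAM5 knockdown, against 52.7 ± 0.99 in the DRP1 knockdown). The nearest to Idh1 were, at 0.024 and 0.025, Mpdu1, a gene of dolichol-linked sugar use (29.3 ± 1.79 FPKM in the PGAM5 knockdown, against 35.6 ± 0.41 in the DRP1 knockdown), and the pseudogene Eif4a-ps4, whose reads may be shared with its parent gene. The nearest to Sucla2 were, at 0.024 and 0.025, Trmt61a, a tRNA methyltransferase gene (36.5 ± 0.89 FPKM in the PGAM5 knockdown, against 42.6 ± 1.36 in the DRP1 knockdown), and Plscr1, a phospholipid scramblase gene (10.7 ± 0.51 FPKM in the PGAM5 knockdown, against 12.5 ± 0.61 in the DRP1 knockdown). These ranks moved when 1 library was left out, between 1 and 24 for Tlr2, 2 and 6 for Mpdu1, 1 and 8 for Eif4a-ps4, 2 and 15 for Trmt61a and 1 and 20 for Plscr1.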

How the data were processed

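Poly-A RNA was captured from total RNA of 6 samples on oligo-T beads, fragmented and copied from random primers, per the labels' protocols. These allow for stranded and for unstranded libraries and do not say which was made. The authors deposited 1 FPKM per gene and library, made with HISAT2 2.0.5 and featureCounts 1.5.0-p3 on mm10, per the submitters' processing notes. Their annotation release was not given in the sources used here. FPKM is scaled to each library's total, so a few abundant genes can shift the rest. Symbols, coordinates and exonic lengths came from GENCODE M21 (54495 of 54532 identifiers matched). FPKM times exonic length and 1 depth per library came within 0.02 of a whole number for 96.1% of values above 0, which gave the reads quoted.

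Genes with a mean of at least 1 FPKM were tested on log2(FPKM + 1), which understates changes of low genes, with limma 3.58.1 in R 4.3.3 (empirical Bayes with trend, two-sided, Benjamini-Hochberg over 10634 genes). Copies were sought with blastn 2.17.0. The members, pathway lists, motifs and tests were chosen with earlier results of these data known, and no list carries a test. The text names all 9 members, the pathway genes that passed and a few of the most abundant that did not; other named genes below the threshold were chosen after their values were seen. The replicate numbers showed no pairing of the libraries, but the values cannot exclude it. Alternatives were other pseudocounts, filters, scalings, no trend, a replicate block, voom on recovered reads (added after seeing the data) and leaving out each library. A count test of edgeR was not run, since the files hold no counts. A few named results that the counts include are not reported here.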

Additional observations from a re-analysis of the deposited data

How the results depend on the processing

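Over 14 alternatives Cs, Idh1, Sucla2 and Suclg1 kept their direction and passed in each. Their highest limma adjusted p was 0.018, 0.042, 0.047 and 0.041 in that order. Idh3a, Ogdh and Mdh2 kept their direction and passed in none. Fh1 passed in 12 and missed without DRP1 knockdown library 2 or 3. Idh3b, which never passed, changed sign to -0.0263 (limma adjusted p = 0.55) under quantile normalization. Thus 3 enzymes rose in all but those 2 fits, where 2 did, and 2 fell in each. The median difference of the 9, 0.06, ran from 0.056 to 0.086 when 1 library was left out. With the replicate block, 3 enzymes rose and 2 fell as before, and over all tested genes 1161 rose and 972 fell, against 1464 and 1240 without it. Same-numbered libraries deviated from their group means with correlations of 0.0215, 0.031 and -3e-04, and not every library correlated best with its own number. These values show no pairing by number but cannot exclude it, and the titles do not state it. Leaving out 1 library gave 819 to 1287 tested genes that fell, against 1240 with all 6, with the lowest count without DRP1 knockdown library 3. No scaling moved the median of all genes by 0.1. Of the 19 other pathway genes called, 15 passed in each alternative, and Sdhc, Mdh1, Pdk3 and Slc25a13 did not. Of the 25 not called, 3 (Dld, Acly and Lipt1) passed in at least 1. The planned edgeR fit and voom with TMM were not run, since the files hold FPKM, and voom with median-ratio library sizes, added after seeing the data, was used in their place. Depth limits little here, with at least 926 reads per enzyme gene and library, while 3 libraries a group limit the rest.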
